A study of Rattus norvegicus with 16 samples.

Results

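The genes described here carry pyruvate into mitochondria, oxidise it, run the tricarboxylic acid cycle and exchange malate and aspartate across the inner mitochondrial membrane, and their RNA levels were compared in right ventricular wall of the rat. The set was a list of 32 genes drawn up by function, of which 28 were measured among 17245 genes tested. A gene was measured where a probe set on the array was paired with exactly 1 gene symbol. Mpc2 and Fh were not listed by the probe annotation used, the probe sets of Pdha1 and Dlst were shared with another symbol, and these 4 genes were not analysed here.

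Male Wistar rats weighing 160 to 180 g had undergone a sham operation or banding of the pulmonary artery, which makes the right ventricle pump against a raised pressure. The labels name 7 samples CON, 5 RVF+ and 4 RVF and do not state which operation each sample had, what RVF and RVF+ stand for or the time after the operation, although the title of the series speaks of right ventricular failure with clinical symptoms under chronic pressure load. Whether each sample is a separate animal is not stated, so the p-values reflect the spread between samples as given, which may be technical. Each sample was 1 Affymetrix array, named here by its group and the number in its title (CON 1 to 7, RVF+ 8 to 12, RVF 13 to 16), and values are log2 intensities, on which a difference of 1 is a 2-fold change. RNA levels were measured, and enzyme amounts, their phosphorylation and metabolic flux were not analysed here.

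In heart muscle most energy comes from mitochondrial oxidation of fatty acids, with pyruvate from glucose and lactate as a further fuel. Pyruvate enters mitochondria through a carrier and is turned into acetyl-CoA by the pyruvate dehydrogenase complex, which kinases switch off by phosphorylation and phosphatases switch on again. Acetyl-CoA from pyruvate and from fatty acids meets in the cycle, which feeds electrons to the respiratory chain, and pyruvate carboxylase and the transaminases refill cycle intermediates. The malate-aspartate exchange brings the reducing power of cytosolic NADH into the mitochondrion.

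RNA of most of these genes was lower in RVF+ than in CON, and RNA of a smaller number passed the test in RVF. In RVF+, 24 of the 28 measured members were lower than in CON and 0 were higher (limma, Benjamini-Hochberg adjusted p below 0.05 over all 17245 genes), against 13.6% of all genes called lower. Their median difference was -0.50, beside -0.012 over all genes. Mpc1, Pdhx, Pdk4 and Idh1 were the members not called. In RVF, 10 of the 28 were called lower than in CON and 0 higher, against 8.29% of all genes called lower, with a median of -0.30 beside -0.0087 over all genes. The 10 were Pdk4, Pc, Cs, Aco1, Suclg1, Suclg2, Sdha, Sdhd, Got1 and Got2, and the fitted difference was negative for all 28. Both comparisons use the same CON arrays, so they are not independent. In bulk tissue fewer cells of a type and less RNA per cell cannot be told apart, and 19 measured cardiomyocyte marker genes had a median of -0.30 in RVF+ and -0.12 in RVF.

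**Figure D1:**
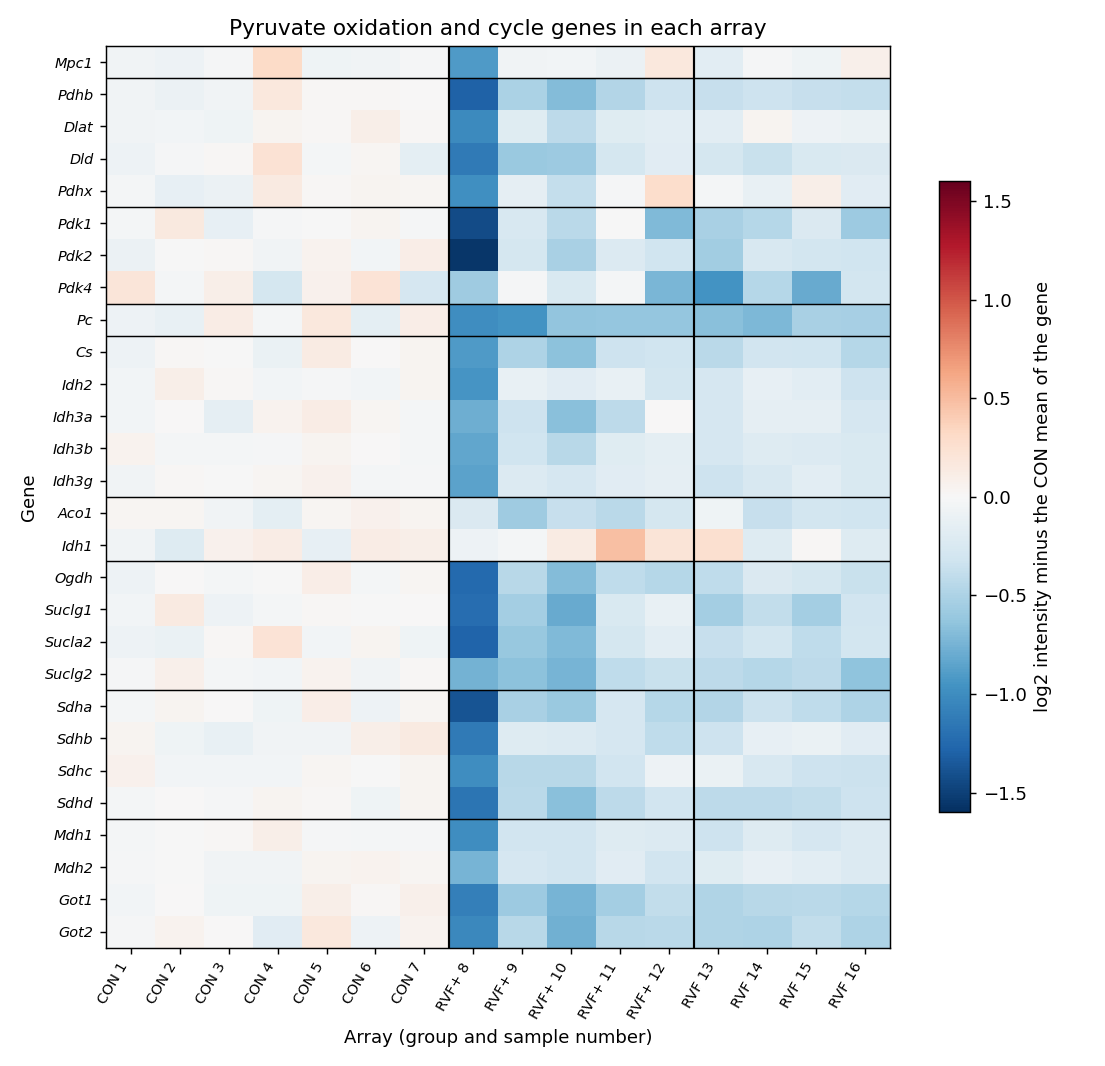
Colour shows the log2 intensity of each measured gene (rows, ordered by step) on each of the 16 arrays (columns, grouped as CON, RVF+ and RVF), minus the mean of the 7 CON arrays. RVF+ 8 is the lowest of all 16 arrays for 25 of the 28 genes.

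The array RVF+ 8 stood apart from the rest. Measured as the root mean square over all genes, its log2 distance to the CON mean was 0.711, while the remaining RVF+ and RVF arrays had 0.326 to 0.448 and CON 0.157 to 0.212. It was the lowest of all 16 arrays for 25 of the 28 members, and the lowest of its group for 26. The median over members of the SD within a group was 0.073 in CON, 0.0856 in RVF and 0.343 in RVF+, and it was 0.150 in RVF+ without this array. Without RVF+ 8, 23 of the 28 members were called lower in RVF+ than in CON, against 12.0% of all genes, and the median difference was -0.35. Idh2 was the member lost. Because the 3 groups share 1 estimate of the spread, leaving out RVF+ 8 also raised the count in RVF against CON from 10 to 22 with identical differences, against 11.2% of all genes called lower. The 6 members not called were then Mpc1, Dlat, Pdhx, Idh3a, Idh1 and Sdhb. A fit to the RVF and CON arrays alone called 23 lower, against 11.7% of all genes, with Mpc1, Dlat, Pdhx, Idh1 and Sdhb not called.

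Overlap of the arrays gave a view that does not depend on the shared spread. Every RVF+ array lay below every CON array for 22 members (78.6%), as was the case for 7.63% of all genes. Every RVF array lay below every CON array for 22 members too, against 9.00% of all genes. Pdk1, Pdk4 and Idh3a were separated in this way in RVF but not in RVF+. Dlat, Aco1 and Sdhb were separated in RVF+ but not in RVF. The number of members separated was the same for RVF and RVF+, although 10 and 24 passed the test.

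**Figure D2:**
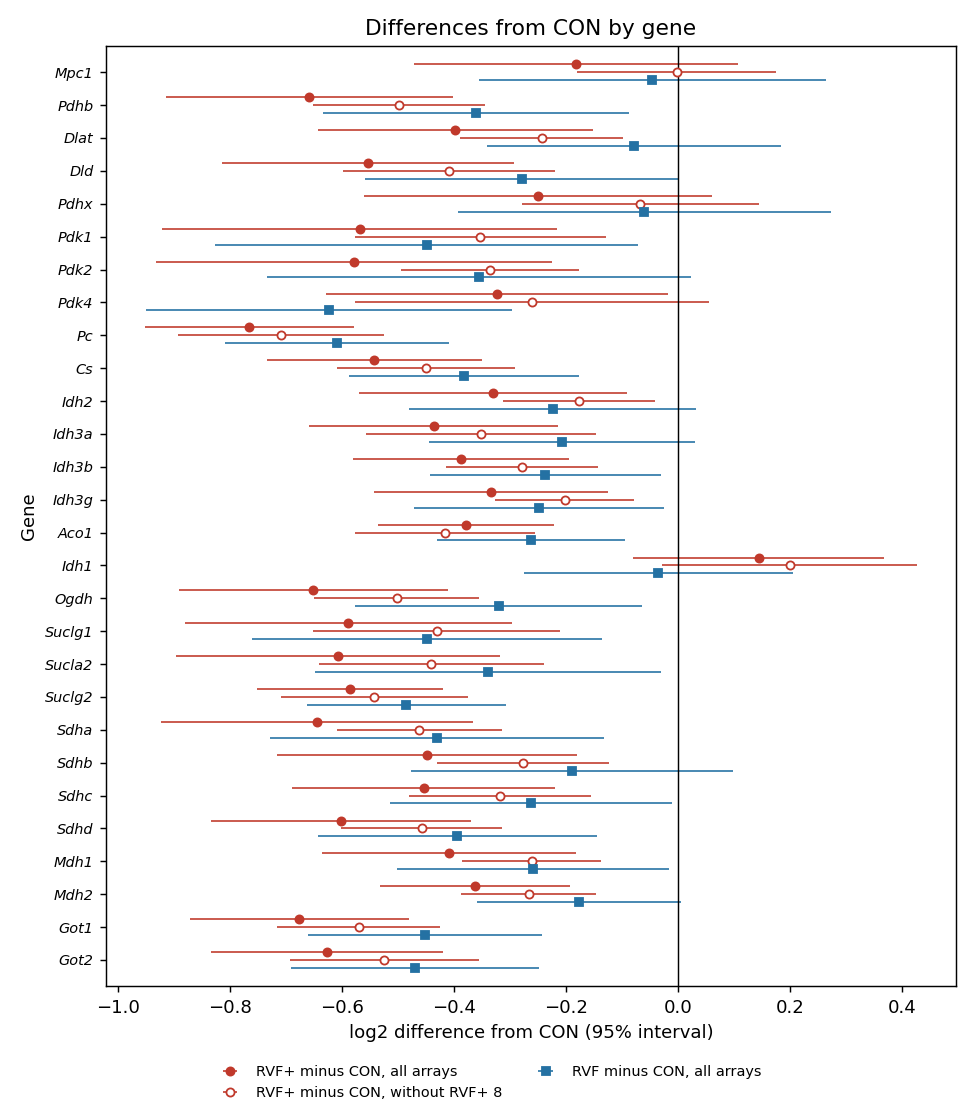
Each gene's log2 difference from CON is shown for RVF+ with all 5 arrays, for RVF+ without RVF+ 8 and for RVF, with bars for the 95% interval of the fit. Nearly all points lie below 0, and Idh1, Mpc1 and Pdhx lie nearest to it in RVF.

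Promoter sequences from RefSeq (build GRCr8) were at hand for 26 of the 28 measured members, all but Pc and Idh3a, and span 250 bases before to 50 bases after the annotated start. They are shown for Suclg2, Got1 and Got2, which with Pc had the smallest p in RVF against CON, and for Sdhd. Sdhd was added after its sequence had been searched, as the sole member with the motif AAGGTCA, which estrogen-related receptors are known to bind. Sequences run 5′ to 3′ on the strand of the gene, and capitals mark the motif.
Suclg2 (chr4:129893888-129894187, minus strand): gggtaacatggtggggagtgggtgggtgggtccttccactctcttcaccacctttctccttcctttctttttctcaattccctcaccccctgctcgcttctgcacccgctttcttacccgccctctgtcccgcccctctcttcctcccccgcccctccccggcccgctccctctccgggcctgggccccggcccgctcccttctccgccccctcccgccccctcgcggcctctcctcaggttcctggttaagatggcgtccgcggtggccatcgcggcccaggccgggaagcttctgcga
Got1 (chr1:252329822-252330121, minus strand): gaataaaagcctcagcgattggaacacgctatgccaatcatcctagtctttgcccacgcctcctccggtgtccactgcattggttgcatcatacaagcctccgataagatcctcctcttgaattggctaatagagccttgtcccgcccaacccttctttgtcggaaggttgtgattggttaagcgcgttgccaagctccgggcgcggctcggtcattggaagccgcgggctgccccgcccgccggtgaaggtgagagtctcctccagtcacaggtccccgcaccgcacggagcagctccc
Got2 (chr19:9180178-9180477, plus strand): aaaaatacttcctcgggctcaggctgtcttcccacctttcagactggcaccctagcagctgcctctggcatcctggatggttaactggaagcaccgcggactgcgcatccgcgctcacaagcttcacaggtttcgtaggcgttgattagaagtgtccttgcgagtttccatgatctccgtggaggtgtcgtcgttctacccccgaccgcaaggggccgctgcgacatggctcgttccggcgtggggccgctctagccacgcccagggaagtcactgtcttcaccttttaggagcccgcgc
Sdhd (chr8:59850592-59850891, minus strand): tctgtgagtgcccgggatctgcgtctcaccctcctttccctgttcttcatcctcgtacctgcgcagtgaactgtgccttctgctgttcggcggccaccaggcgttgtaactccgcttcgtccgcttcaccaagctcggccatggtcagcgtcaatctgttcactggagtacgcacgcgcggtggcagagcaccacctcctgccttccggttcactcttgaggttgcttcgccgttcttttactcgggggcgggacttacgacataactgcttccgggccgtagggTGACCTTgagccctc
The match in Sdhd reads in the opposite orientation, at bases 286 to 292 of the 300, after the annotated start. AAGGTCA was searched on both strands and was found in 1 of the 26 member promoters (3.85%), beside 3.50% of the 15593 promoters of genes tested and 4.61% of all 33469 promoters. Its last 6 letters, AGGTCA, which every longer match contains, were found in 6 of the 26 (23.1%), in Dlat, Idh3g, Mdh1, Pdhb, Sdhb and Sdhd, beside 13.6% and 16.2%. These counts describe letters in a short window.

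Genes of the transcriptional regulators that act on mitochondrial genes were lower in RVF+. Ppargc1a, which encodes the coactivator PGC-1alpha, lay at 9.59, 9.73 and 9.82 (lowest, median, highest) in the 7 CON arrays, at 7.78, 9.14, 9.00, 9.46 and 9.10 in RVF+ 8 to 12, and at 8.66, 9.35, 9.19 and 9.10 in RVF 13 to 16. All RVF+ and RVF arrays were below all CON arrays. The difference in RVF+ was -0.81 ± 0.20 (SE, limma adjusted p = 0.00612), and without RVF+ 8 it was -0.53. In RVF it was -0.63 ± 0.22 and missed the threshold (adjusted p = 0.0533). Esrra, the gene of estrogen-related receptor alpha, fell by 0.41 in RVF+ (adjusted p = 0.00399) and had -0.24 in RVF (adjusted p = 0.136). Ppara, the gene of a fatty acid sensing nuclear receptor, fell by 0.90 in RVF+ (adjusted p = 0.00216) and had -0.50 in RVF (adjusted p = 0.11).

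Entry of pyruvate through the carrier was represented by Mpc1, a subunit of the mitochondrial pyruvate carrier, and its RNA did not change by the test. It lay at 9.64, 9.66 and 10.03 (lowest, median, highest) in CON, where CON 4 was the high array. In RVF+ the values were 8.81, 9.66, 9.68, 9.62 and 9.89, and in RVF 9.54, 9.69, 9.65 and 9.79. Apart from RVF+ 8, the groups overlapped widely. The difference was -0.18 ± 0.14 in RVF+ (adjusted p = 0.361), -0.0019 without RVF+ 8, and -0.05 ± 0.15 in RVF (adjusted p = 0.874), with a 95% interval of -0.36 to 0.26 for the latter.

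Of the pyruvate dehydrogenase complex 4 genes were measured, and with all arrays 3 of them fell in RVF+ while 0 were called in RVF. Pdhb encodes the beta subunit of the E1 component, which decarboxylates pyruvate. Its levels were 9.14, 9.24 and 9.39 (lowest, median, highest) in CON, 7.93, 8.72, 8.54, 8.76 and 8.90 in RVF+, and 8.86, 8.90, 8.86 and 8.85 in RVF. No RVF+ or RVF array reached the CON range. The fall in RVF+ was -0.66 ± 0.12 (1.58-fold, adjusted p = 0.000621), and -0.50 without RVF+ 8. In RVF the difference was -0.36 ± 0.13 (adjusted p = 0.0658), and it passed without RVF+ 8 (adjusted p = 0.00129) or without RVF+ 12 (adjusted p = 0.049).

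Dlat and Dld encode the E2 transacetylase and the E3 dehydrogenase of the complex, the latter shared with 2-oxoglutarate dehydrogenase. Dld fell by 0.55 in RVF+ (adjusted p = 0.00279) and had -0.28 in RVF (adjusted p = 0.169, or 0.0298 without RVF+ 8). Dlat lay at 10.41 to 10.57 in CON, between 9.46 and 10.31 in RVF+ and between 10.30 and 10.52 in RVF, so that RVF+ lay below CON while RVF overlapped with it. Its difference was -0.40 ± 0.12 in RVF+ (adjusted p = 0.0162), -0.24 without RVF+ 8 (adjusted p = 0.0144), and -0.08 ± 0.12 in RVF (adjusted p = 0.725), and its other probe set gave -0.41 and -0.08. Pdhx, which binds E3 to the complex, had -0.25 ± 0.15 in RVF+ (adjusted p = 0.232) and -0.06 in RVF. Pdhx was called in RVF+ in 1 of the 25 other settings, without RVF+ 12, the highest of its group at 8.22. The difference was then -0.38 (adjusted p = 0.0443), and without RVF+ 8 it was -0.07 (adjusted p = 0.692).

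Pyruvate dehydrogenase kinases phosphorylate E1 and so hold the complex inactive. Of the 3 members among them, Pdk1 and Pdk2 were called in RVF+ and Pdk4 in RVF with all arrays. Without RVF+ 8, all 3 were called lower in RVF. Pdk2 lay at 10.35, 10.43 and 10.55 (lowest, median, highest) in CON, at 8.89, 10.15, 9.92, 10.21 and 10.12 in RVF+, and at 9.88, 10.18, 10.15 and 10.11 in RVF. All RVF+ and RVF arrays were below CON, and RVF+ 8 lay far below the others. The difference in RVF+ was -0.58 ± 0.17 (adjusted p = 0.0154), and -0.34 without RVF+ 8 (adjusted p = 0.00304). In RVF it was -0.36 ± 0.18 (adjusted p = 0.199), which became 0.002 without RVF+ 8. Pdk1, a kinase gene induced by hypoxia, fell by 0.57 in RVF+ (adjusted p = 0.0169), or by 0.35 without RVF+ 8. In RVF it had -0.45 (adjusted p = 0.0971, or 0.00456 without RVF+ 8).

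With all arrays, Pdk4, the kinase gene induced by fasting and by fatty acids, was the one member called in RVF but not in RVF+. Its levels were 10.99, 11.34 and 11.49 (lowest, median, highest) in CON, 10.70, 11.24, 11.02, 11.23 and 10.53 in RVF+, and 10.32, 10.81, 10.46 and 10.98 in RVF. All RVF arrays lay below all CON arrays, RVF 16 by a narrow margin, while 3 of the RVF+ arrays lay inside the CON range. It fell by 0.62 ± 0.15 in RVF (1.54-fold, adjusted p = 0.0098), or by 0.51 without RVF 13, the lowest array (adjusted p = 0.0514). In RVF+ it had -0.32 ± 0.14 (adjusted p = 0.109). Set against each other, RVF+ and RVF differed by 0.30 with a 95% interval of -0.05 to 0.65 (adjusted p = 0.751), and by 0.36 with an interval of 0.01 to 0.72 without RVF+ 8 (adjusted p = 0.626), so the test of the difference itself did not pass.

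**Figure D3:**
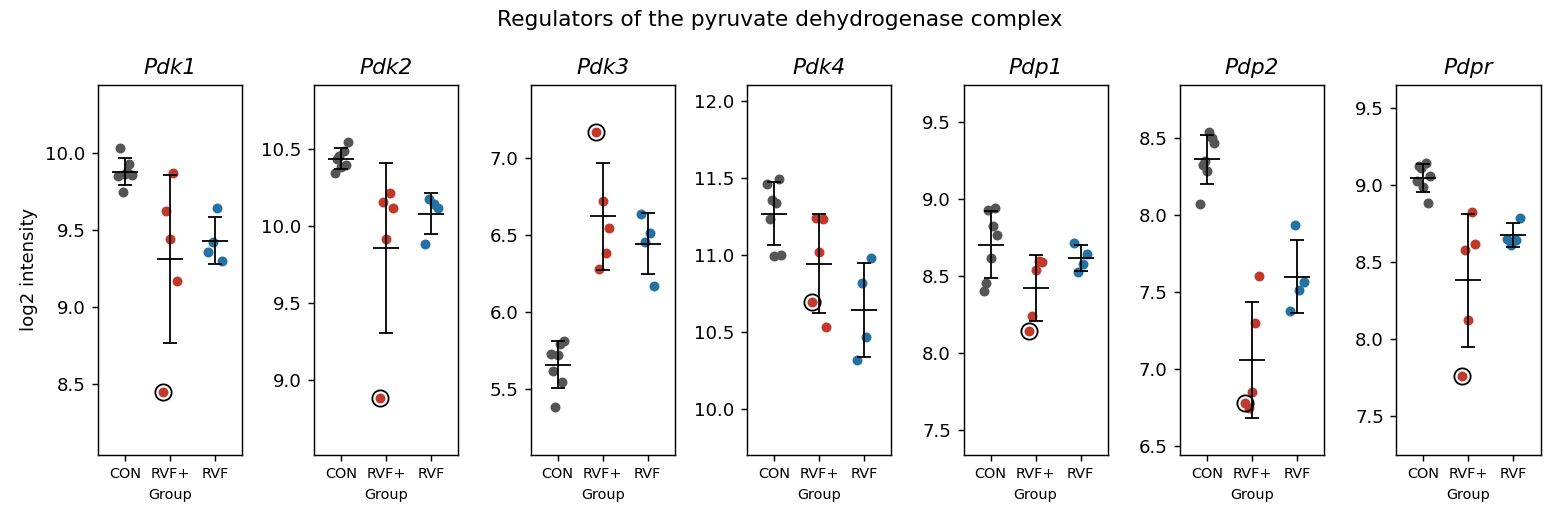
Log2 intensity of genes of pyruvate dehydrogenase kinases and phosphatases on each array, with CON, RVF+ and RVF side by side, RVF+ 8 ringed, and the mean and SD of each group in black. Pdk3 is higher in every RVF+ and RVF array than in any CON array, and Pdp2 is lower in each of them.

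Among further regulators of the complex, from a second list of pathway genes, Pdk3 and Pdp2 had larger differences from CON in RVF+ than any measured member. Pdk3, another kinase gene, lay at 5.38, 5.72 and 5.81 (lowest, median, highest) in CON, at 7.16, 6.28, 6.72, 6.38 and 6.54 in RVF+, and at 6.63, 6.45, 6.51 and 6.17 in RVF. Every RVF+ and RVF array was above every CON array, and RVF+ 8 was the highest. It rose by 0.96 ± 0.13 in RVF+ (1.95-fold, adjusted p = 4.12e-05), by 0.83 without RVF+ 8, and by 0.79 ± 0.14 in RVF (adjusted p = 0.000785). The direction of Pdk3 was thus opposite to that of Pdk1, Pdk2 and Pdk4.

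Pdp2, which encodes a phosphatase that reactivates the complex, lay at 8.07, 8.35 and 8.54 (lowest, median, highest) in CON, at 6.78, 6.75, 6.85, 7.30 and 7.61 in RVF+, and at 7.38, 7.94, 7.52 and 7.57 in RVF. No array of RVF+ or RVF reached the CON range, and here RVF+ 8 lay with RVF+ 9 and 10. It fell by 1.31 ± 0.14 in RVF+ (2.47-fold, adjusted p = 5.28e-06) and by 0.76 ± 0.15 in RVF (adjusted p = 0.00188). RVF+ was lower than RVF by a fitted -0.54, with a 95% interval of -0.88 to -0.20 and an adjusted p of 0.434. Pdpr, the regulatory subunit of the phosphatase, fell by 0.67 in RVF+ (adjusted p = 0.00137) and had -0.37 in RVF (adjusted p = 0.0879). Pdp1, the gene of the other catalytic subunit, had -0.28 and -0.09 and was not called.

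Pc, which encodes pyruvate carboxylase and so the route from pyruvate to oxaloacetate, had the largest difference of the members in RVF+ and the smallest p in both comparisons with CON. It lay at 7.19, 7.32 and 7.52 (lowest, median, highest) in CON, at 6.36, 6.40, 6.72, 6.73 and 6.73 in RVF+, and at 6.69, 6.63, 6.83 and 6.82 in RVF. All RVF+ and RVF arrays were below all CON arrays, and RVF+ 9 was nearly as low as RVF+ 8. The difference was -0.76 ± 0.09 in RVF+ (1.70-fold, adjusted p = 9.87e-06), -0.71 without RVF+ 8, and -0.61 ± 0.09 in RVF (1.52-fold, adjusted p = 0.00024).

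From citrate to 2-oxoglutarate in the mitochondrion, all 5 measured genes fell in RVF+, and with all arrays Cs alone was called in RVF. Cs encodes citrate synthase, which opens the cycle. It lay at 11.43, 11.53 and 11.65 (lowest, median, highest) in CON, at 10.62, 11.03, 10.87, 11.19 and 11.21 in RVF+, and at 11.10, 11.22, 11.20 and 11.07 in RVF. Neither group reached the CON range, and RVF fell within the RVF+ range apart from RVF 14. In RVF Cs fell by 0.38 ± 0.10 (adjusted p = 0.0113). The 3 subunit genes of the NAD-dependent isocitrate dehydrogenase, Idh3a, Idh3b and Idh3g, fell by 0.44, 0.39 and 0.33 in RVF+ (adjusted p = 0.00476, 0.00407 and 0.0177), and Idh3g by 0.20 without RVF+ 8. In RVF they had -0.21, -0.24 and -0.25 (adjusted p = 0.236, 0.11 and 0.123). Without RVF+ 8 these differences were the same, with adjusted p of 0.141, 0.0114 and 0.00449, so Idh3b and Idh3g were then called.

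Idh2, the NADP-dependent mitochondrial enzyme, passed in RVF+ in 15 of the 25 other settings and was the member whose call in RVF+ depended most on the setting. It lay at 12.17, 12.20 and 12.31 (lowest, median, highest) in CON, at 11.28, 12.11, 12.04, 12.10 and 11.92 in RVF+, and at 11.95, 12.09, 12.06 and 11.89 in RVF. All RVF+ and RVF arrays were below the CON range, and RVF+ 8 was far below the rest. The difference in RVF+ was -0.33 ± 0.11 (adjusted p = 0.038), and -0.18 without RVF+ 8 (adjusted p = 0.0545). Leaving out RVF+ 12 or any CON array other than CON 4 also ended the call, with adjusted p between 0.0508 and 0.0663. Fitting RVF+ and CON alone (0.0654) and array weights (0.0691) ended it too. In RVF the difference was -0.22 (adjusted p = 0.235, or 0.0162 without RVF+ 8).

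Of the cytosolic enzymes of the same reactions, Aco1 fell and Idh1 was not called. Aco1, the cytosolic aconitase gene whose protein is also an iron regulatory protein, lay at 8.14, 8.32 and 8.35 (lowest, median, highest) in CON, at 8.06, 7.71, 7.92, 7.85 and 8.00 in RVF+, and at 8.22, 7.92, 7.99 and 7.97 in RVF. Every RVF+ array was below CON, RVF 13 overlapped with it, and RVF+ 8 was the highest array of its group. The difference was -0.38 ± 0.07 in RVF+ (adjusted p = 0.00108), -0.42 without RVF+ 8, and -0.26 ± 0.08 in RVF (adjusted p = 0.0312). The call in RVF did not hold without any one of CON 1, 2, 5, 6 and 7 or RVF 14, 15 and 16. The adjusted p was then 0.0505 to 0.106. The call held without RVF+ 8 (adjusted p = 0.0166) and with RVF and CON fitted alone (adjusted p = 0.0157).

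Idh1, the cytosolic NADP-dependent isocitrate dehydrogenase gene, was the one member with a positive difference from CON in RVF+. It lay at 8.89, 9.16 and 9.21 (lowest, median, highest) in CON, at 9.01, 9.06, 9.22, 9.58 and 9.30 in RVF+, and at 9.35, 8.89, 9.11 and 8.88 in RVF. The groups overlapped. The differences were 0.14 ± 0.11 in RVF+ (adjusted p = 0.346) and -0.03 ± 0.11 in RVF (adjusted p = 0.876).

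Idh1 was also set against Idh2 within each array. The difference of Idh1 minus Idh2 was higher in RVF+ than in CON by 0.47, with a two-sided exact permutation p of 0.00379 over 792 splits of the 5 and 7 arrays. Adjusted over the 18 tests of 6 gene pairs in 3 comparisons it was 0.0682. Without RVF+ 8 the shift was 0.38, with an exact p of 0.00909 and an adjusted p of 0.164. The other measured pairs were Pdk4 with Pdk2, Idh2 with Idh3a, Suclg2 with Sucla2, Mdh1 with Mdh2, and Got1 with Got2. In these 5 pairs the exact permutation p was 0.0873 or more, and 0 of the 18 tests passed after adjustment. The smallest exact p that the numbers of arrays allow is 0.00126 for RVF+ against CON, 0.00303 for RVF against CON and 0.00794 for RVF+ against RVF. The widest shift among them was Pdk4 minus Pdk2, higher by 0.52 in RVF+ than in RVF, and by 0.34 without RVF+ 8 (exact p = 0.171).

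All 4 measured genes from 2-oxoglutarate to succinate fell in RVF+. Ogdh encodes the E1 subunit of 2-oxoglutarate dehydrogenase. It lay at 11.21, 11.29 and 11.40 (lowest, median, highest) in CON, at 10.05, 10.86, 10.59, 10.88 and 10.84 in RVF+, and at 10.88, 11.07, 11.01 and 10.93 in RVF. The 3 groups stood in the order CON, RVF, RVF+ without overlap. The difference in RVF+ was -0.65 ± 0.11 (1.57-fold, adjusted p = 0.000393), and -0.50 without RVF+ 8. In RVF it was -0.32 ± 0.12 (adjusted p = 0.0817, or 0.00249 without RVF+ 8).

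Succinate-CoA ligase joins the alpha subunit Suclg1 with a beta subunit, Sucla2 for the ATP-forming and Suclg2 for the GTP-forming enzyme. Suclg2 lay at 9.64, 9.68 and 9.78 (lowest, median, highest) in CON, at 8.94, 9.04, 8.96, 9.29 and 9.34 in RVF+, and at 9.28, 9.24, 9.29 and 9.06 in RVF. All RVF+ and RVF arrays were below CON, and RVF+ 8 did not stand out. It fell by 0.58 ± 0.08 in RVF+ (adjusted p = 3.94e-05) and by 0.48 ± 0.08 in RVF (adjusted p = 0.000655). Sucla2 fell by 0.61 in RVF+ (adjusted p = 0.003) and had -0.34 in RVF (adjusted p = 0.129, or 0.0136 without RVF+ 8). Suclg1 fell by 0.59 in RVF+ (adjusted p = 0.00406) and by 0.45 in RVF (adjusted p = 0.0462). The call in RVF did not hold without any one of CON 1 to 7, RVF+ 9 or RVF 13 to 16. The adjusted p was then 0.0554 to 0.126. The call held without RVF+ 8 (adjusted p = 0.00404) and with RVF and CON fitted alone (adjusted p = 0.000271).

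The 4 subunit genes of succinate dehydrogenase, the cycle enzyme that is also complex II of the respiratory chain, all fell in RVF+. Sdha encodes its flavoprotein. It lay at 10.94, 11.02 and 11.12 (lowest, median, highest) in CON, at 9.64, 10.49, 10.42, 10.74 and 10.55 in RVF+, and at 10.55, 10.67, 10.61 and 10.51 in RVF. Both groups lay wholly below CON. The fall was -0.64 ± 0.13 in RVF+ (adjusted p = 0.00145) and -0.43 ± 0.14 in RVF (adjusted p = 0.0445). In RVF this call did not hold without any one of CON 1 to 7, RVF+ 9, RVF+ 10 or RVF 13 to 16 (adjusted p = 0.0512 to 0.109), nor after quantile normalization (adjusted p = 0.0511).

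Sdhd, a membrane anchor of the enzyme, lay at 10.67, 10.74 and 10.79 (lowest, median, highest) in CON, at 9.56, 10.30, 10.07, 10.32 and 10.43 in RVF+, and at 10.31, 10.32, 10.34 and 10.41 in RVF. The RVF arrays were close together and lay inside the RVF+ range. It fell by 0.60 ± 0.11 in RVF+ (adjusted p = 0.000593) and by 0.39 ± 0.12 in RVF (adjusted p = 0.0283). The adjusted p in RVF became 0.0502 to 0.0755 without any one RVF array, and 0.000153 with RVF and CON fitted alone. Sdhb, the iron-sulfur subunit, and Sdhc, the other anchor, fell by 0.45 each in RVF+ (adjusted p = 0.0137 and 0.00535), and by 0.28 and 0.32 without RVF+ 8. In RVF they had -0.19 and -0.26 (adjusted p = 0.39 and 0.15). Without RVF+ 8, Sdhc was called in RVF (adjusted p = 0.0178) and Sdhb was not.

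Malate-aspartate exchange was represented by the malate dehydrogenases and aspartate transaminases, a cytosolic and a mitochondrial gene of each, and all 4 fell in RVF+. Got1, the cytosolic transaminase, lay at 11.38, 11.46 and 11.55 (lowest, median, highest) in CON, at 10.36, 10.87, 10.71, 10.92 and 11.06 in RVF+, and at 10.98, 11.02, 11.03 and 11.01 in RVF. Got2, the mitochondrial one, lay at 11.26, 11.44 and 11.60 in CON, at 10.40, 10.99, 10.67, 10.99 and 11.00 in RVF+, and at 10.95, 10.94, 11.04 and 10.94 in RVF. For both genes no RVF+ or RVF array reached the CON range. Got1 fell by 0.68 ± 0.09 in RVF+ (1.60-fold, adjusted p = 4.56e-05) and by 0.45 ± 0.10 in RVF (adjusted p = 0.00414). Got2 fell by 0.63 ± 0.10 in RVF+ (adjusted p = 0.000154) and by 0.47 ± 0.11 in RVF (adjusted p = 0.00483). Mdh1 and Mdh2 fell by 0.41 and 0.36 in RVF+ (adjusted p = 0.0086 and 0.00272), and by 0.26 and 0.27 without RVF+ 8. In RVF they had -0.26 and -0.18 (adjusted p = 0.142 and 0.182). Without RVF+ 8 the differences in RVF were the same and both genes were called (adjusted p = 0.00336 and 0.0316).

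**Figure D4:**
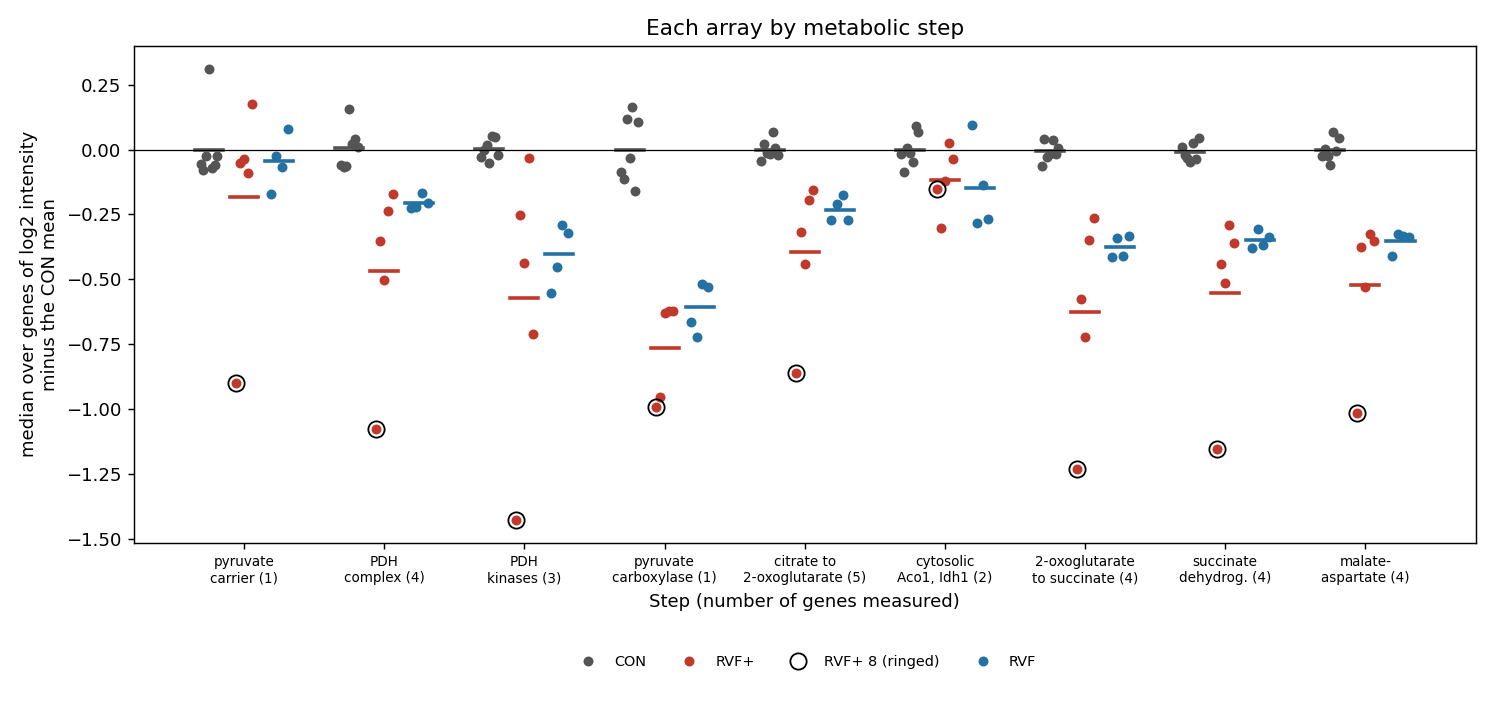
For each step, the median over its measured genes of log2 intensity minus the CON mean is shown per array, with a line at the group mean and RVF+ 8 ringed. All steps other than the pyruvate carrier and the cytosolic enzymes have every RVF+ and RVF array below 0.

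Summarised by array and step, the median difference from the CON mean over all 28 members was -0.49 ± 0.30 (SD, n = 5) in RVF+, from -0.999 in RVF+ 8 to -0.27. In RVF it was -0.31 ± 0.03 (SD, n = 4), and the CON arrays lay between -0.04 and 0.03. Among the steps with more than 1 gene, the mean over RVF+ arrays was -0.63 for 2-oxoglutarate to succinate, -0.57 for the kinases, -0.55 for succinate dehydrogenase, -0.52 for malate-aspartate exchange, -0.47 for the pyruvate dehydrogenase complex and -0.39 for citrate to 2-oxoglutarate. In the cytosolic pair Aco1 and Idh1 it was -0.12. The same means over RVF arrays were -0.37, -0.40, -0.35, -0.35, -0.21, -0.23 and -0.15. Without RVF+ 8 the means in RVF+ were, in the same order, -0.48, -0.36, -0.40, -0.40, -0.32, -0.28 and -0.11, so the kinases came after succinate dehydrogenase and malate-aspartate exchange. With all arrays, the SD between RVF+ arrays was 0.28 to 0.54 in these steps apart from the cytosolic pair. All steps were measured on the same arrays, so this SD does not measure the uncertainty of a difference between steps. Within each RVF+ and each RVF array, 2-oxoglutarate to succinate lay lower than citrate to 2-oxoglutarate. Differences between steps were not tested.

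Compared directly, 0 of the 28 members differed between RVF+ and RVF by limma after adjustment, and 0% of all 17245 genes did. At an unadjusted limma p below 0.05 there were 4 of the 28 members, Pdhb, Dlat, Ogdh and Got1, and 1242 of the 17245 genes. Without RVF+ 8 the unadjusted limma p was 0.113 for Pdhb, 0.0496 for Dlat and 0.0338 for Ogdh. The fitted difference was negative for 26 members, with a median of -0.17, and for 20 members with a median of -0.06 without RVF+ 8. Ogdh was the sole member with every RVF+ array below every RVF array, by a narrow margin. Such a separation was found for 1.15% of all genes. Ogdh differed by -0.33 ± 0.13, with a 95% interval of -0.61 to -0.06 (adjusted p = 0.608), and by -0.18 without RVF+ 8. Over the 28 members the 95% intervals, not adjusted for the number of genes, reached from -0.63 (Pdk2) to 0.65 (Pdk4). The width of an interval was 0.36 at its narrowest, for Aco1, with a median of 0.54, and for Suclg2 and Cs the intervals were -0.29 to 0.09 and -0.38 to 0.06. Without RVF+ 8 the median width was 0.36 and the bounds reached from -0.37 (Idh3a) to 0.72 (Pdk4), with Pdk2 at -0.16 to 0.20.

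Among 35 further genes of the pathway in a second list, 29 were measured. In RVF+ 13 of them fell and 3 rose, against 13.6% and 14.1% of all genes, and in RVF 7 fell and 2 rose, against 8.29% and 8.86%. The 3 that rose in RVF+ were Pdk3, Me2 and Acly. Of the carriers, Slc25a11, the oxoglutarate-malate carrier, and Slc25a13, an aspartate-glutamate carrier, fell by 0.44 and 0.55 in RVF+ (adjusted p = 0.00283 and 0.00202) and had -0.24 and -0.27 in RVF. A second probe set of Slc25a13, at a mean of 3.24 in RVF+ and 3.29 in CON far below the median gene level of 5.57, gave -0.06 in RVF+ and is too dim to bear on this. Slc25a1, the citrate carrier, rose by 0.39 in RVF at the edge of the threshold (adjusted p = 0.0497), from a level below the median gene, and was not called there after quantile normalization or median centring.

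The malic enzymes, which convert malate to pyruvate, took different directions. Me2, a mitochondrial form, lay at 6.33, 6.51 and 6.62 (lowest, median, highest) in CON, at 8.17, 6.89, 7.14, 7.08 and 7.13 in RVF+, and at 7.19, 6.88, 6.77 and 6.98 in RVF. All RVF+ and RVF arrays were above CON, and RVF+ 8 was the highest. It rose by 0.79 ± 0.16 in RVF+ (adjusted p = 0.00137), by 0.57 without RVF+ 8, and had 0.46 ± 0.17 in RVF (adjusted p = 0.0754). Me3, the other mitochondrial form, fell by 0.73 in RVF+ and by 0.54 in RVF (adjusted p = 0.00144 and 0.0265). Me1, the cytosolic form, fell by 0.41 in RVF+ (adjusted p = 0.00369) and had -0.13 in RVF.

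Among genes of substrate entry and of reactions beside the cycle, Gpt2 had 0.07, Pck1 -0.45 and Pck2 0.32 in RVF+ and none of these was called in either comparison. Glud1, glutamate dehydrogenase, fell by 0.39 and 0.36 in RVF+ and RVF (adjusted p = 0.000248 and 0.00144). Gpt, an alanine transaminase gene with a mean over all arrays below the median gene, fell by 1.25 and 1.02 (adjusted p = 1.53e-05 and 0.000299). Nnt, the transhydrogenase that makes mitochondrial NADPH, fell by 0.69 and 0.49 (adjusted p = 0.000645 and 0.0186). Acly, which splits exported citrate in the cytosol, rose by 0.43 in RVF+ (adjusted p = 0.00374) and had 0.20 in RVF (adjusted p = 0.218).

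Cofactor and assembly genes were in part lower. Lias, which makes the lipoate that E2 subunits carry, and Mcat, which acts in mitochondrial fatty acid synthesis, fell by 0.44 and 0.34 in RVF+ (adjusted p = 0.0149 and 0.00517). Sdhaf2, which helps attach the flavin to Sdha, fell by 0.53 and 0.30 in RVF+ and RVF (adjusted p = 0.000492 and 0.0487), and Dhtkd1, a relative of Ogdh with a mean below the median gene, by 0.40 and 0.30 (adjusted p = 0.0032 and 0.0426). The lactate dehydrogenase genes, which convert pyruvate and lactate, were not called. Ldha had -0.08 ± 0.07 in RVF+ and 0.04 ± 0.08 in RVF, and Ldhb had -0.22 ± 0.10 and -0.08 ± 0.11 (adjusted p = 0.126 and 0.665).

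Other mitochondrial genes stood beside these as follows. Of 23 measured genes of fatty acid oxidation, 22 fell in RVF+ and 20 in RVF, with medians of -0.84 and -0.68, where 13.6% and 8.29% of all genes were called lower. Of 32 measured complex I subunits, 23 and 5 fell, with medians of -0.39 and -0.25, and the 5 in RVF are 15.6% of that list. Of 17 measured genes of mitochondrial structure, such as import, cristae and prohibitin genes, 12 and 5 fell, with medians of -0.34 and -0.15. The members of pyruvate oxidation and the cycle, at -0.50 and -0.30, lay between the first list and the others, and the difference between lists was not tested. Crat, which moves acetyl groups between CoA and carnitine, fell by 0.92 in RVF+ and by 0.72 in RVF (adjusted p = 2.08e-06 and 4.99e-05).

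Markers of several cell types differed from CON in the same comparisons, and their part in the results above was not tested. Of all genes, 13.6% were called lower and 14.1% higher in RVF+, and 8.29% and 8.86% in RVF. Of the 19 measured cardiomyocyte genes, 11 fell and 1 rose in RVF+, and 1 fell and 1 rose in RVF. The counts in RVF did not exceed the shares of all genes. The median of these 19 genes in RVF+ was -0.18 without RVF+ 8. Their summed intensity was 62488 to 65800 in CON, 38558 in RVF+ 8, 51770 to 57804 in the other RVF+ arrays and 57115 to 59597 in RVF. None of the 19 was dim, and Tnnt2, the cardiac troponin T gene, had -0.15 ± 0.07 in RVF+ (adjusted p = 0.112). Of 11 macrophage genes 10 rose in RVF+ and 6 in RVF, and their sum was 1024 to 1497 in CON, 5447 in RVF+ 8, 2017 to 3062 in the other RVF+ arrays and 1678 to 2387 in RVF.

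The counts that follow stand beside 14.1% of all genes called higher and 13.6% lower in RVF+, and 8.86% and 8.29% in RVF. Fibroblast genes rose for 8 of 12 in RVF+ and 7 of 12 in RVF, with sums of 7214 to 8457 (CON), 9324 to 11124 (RVF+) and 9070 to 10632 (RVF), while the fibroblast gene Dcn had 0.04 in both. Of 9 endothelial genes 2 rose in RVF+ and 0 in RVF, with sums of 2424 to 2625 (CON), 2514 to 4095 (RVF+) and 2466 to 3167 (RVF). Smooth muscle genes rose for 4 of 8 and 3 of 8, and red cell genes for 3 of 5 and 0 of 5. Lymphocyte genes rose for 1 of 6 in each, beside 14.1% and 8.86% of all genes, and 4 of the 6 were dim, Cd3e among them. Their sums were 411 to 498 (CON), 601 to 737 in RVF+ apart from 1387 in RVF+ 8, and 572 to 804 (RVF). Of 7 adipocyte genes 6 were dim, among them Adipoq, and 1 fell in RVF+ and 0 in RVF, near the 13.6% of all genes in RVF+ and below the 8.29% in RVF. Of 5 atrial genes 1 fell and 1 rose in RVF+, and 3 fell and 1 rose in RVF, where Myl7 fell by 1.93 (adjusted p = 0.045). Their sum went up, from 884 to 2944 (CON) to 3526 to 5143 (RVF+) and 5070 to 6407 (RVF), and the gene that rose was Nppa, named after its values were seen and also known as a stress gene of the ventricle. Of 8 immediate-early genes, which respond to handling, 0 were called in either comparison.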

How the data were processed

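The authors deposited intensities on a linear scale, 1 for every probe set of an array, made by RMA per the submitters' processing notes. The software used is not given in the sources. Values ran from 2.202 to 10294, with array medians of 27.1 to 29.3. RMA compresses differences of dim probe sets, and precision is limited by the number of arrays. Intensities were converted to log2. Of 29214 probe sets, 18644 had 1 symbol in the platform annotation, 962 several and 9608 none listed, and 18460 identifiers matched RefSeq genes of GRCr8 (0 symbols changed). For 879 genes with several probe sets, Dlat among the members, the one with the highest mean was taken, and no dim gene was removed. A gene is called dim where its mean over all arrays is below the median gene level of 5.57.

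Group means were fitted to all 16 arrays with limma 3.58.1 (lmFit, eBayes) in R 4.3.3, with 13 residual and 4.45 prior degrees of freedom. All adjusted p-values are two-sided, from limma, by Benjamini-Hochberg over 17245 genes, except those of the permutation tests on gene pairs. The code was tested on simulated data.

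The members and lists were chosen with earlier results of these data known. Genes named are all members, any measured gene of the further pathway lists, the 3 regulators, up to 3 of each comparison list and a fixed set of markers. Promoters were shown by rank of p in RVF against CON, apart from that of Sdhd, which was added for its motif. Alternatives were quantile normalization, median centring, a filter on dim genes, the mean or the lowest of a gene's probe sets, an offset of 16, the compared groups alone, trend and robust moderation (statmod 1.5.0), array weights, each array left out and, for promoters, a shorter motif.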

Additional observations from a re-analysis of the deposited data

Results flagged for a closer look

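In 11 of 84 sets of 1 member and 1 group, an array was set off from the others by a wide gap. In 8 of the 11 it was RVF+ 8, the lowest of its group, at a log2 intensity of 8.81 for Mpc1, 8.89 for Pdk2, 11.28 for Idh2, 10.16 for Idh3g, 9.64 for Sdha, 9.77 for Sdhb, 10.81 for Mdh1 and 11.57 for Mdh2. For Mpc1 the array CON 4 was high at 10.03, and for Mdh1 CON 4 was high at 11.90. For Got2 the array RVF 15 was high at 11.04, where the next of its group was at 10.95. Independent sets would give about 1 in 20, or 4.2, by chance. The 84 sets are not independent, because all members were measured on the same arrays. The 11 can therefore not be weighed against 4.2.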

How the results depend on the processing

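The count of members lower in RVF than in CON changed most, from 10 to 23 with the 2 groups fitted alone and to 22 with array weights, where all genes called rose from 2957 to 4466 and 4688. Leaving out 1 array gave 6 to 22 members, with 6 without any one RVF array and 22 without RVF+ 8, and 2063 to 4247 genes. In RVF+ against CON the count stayed at 23 or 24 in every setting run. In RVF+ against RVF 0 members passed in every setting, and 0 to 3 of all genes with 1 array left out (3 without RVF+ 12). No member reversed a called direction. With arrays centred on their medians, the median over all genes was -0.11 in RVF+ and -0.09 in RVF, so the split of calls went from 2348 lower and 2423 higher to 3577 and 1757 in RVF+, and from 1429 and 1528 to 2108 and 1084 in RVF. The median of the fitted differences of the kinase genes in RVF+ was -0.57 with all arrays, -0.38 with array weights and -0.34 without RVF+ 8. This is another measure than the step means above, which average the medians of single arrays. Shortening the motif raised its share among members from 3.85% to 23.1%, since shorter letters match more often. No paired analysis was possible because the sample numbers run from 1 to 16 and no number is shared by groups.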
